A study of Mus musculus with 8 samples.

Results

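Genes of hyaluronan turnover, 7 in number, were followed through the formation of the nucleus pulposus (NP): the synthases Has1, Has2 and Has3, the hyaluronidases Hyal1 and Hyal2, the depolymerase Cemip and the receptor Cd44. They were chosen by name, for their place in the pathway and with earlier results of these data known, as 7 of the 43346 gene identifiers counted. All 7 passed the filter on low counts, Has1 through its E12.5 litters, as it had 2 to 9 counts in the P0 litters. Of the 7 genes, Cd44 mRNA was significantly higher at P0 compared to E12.5. Has1, Has3 and Hyal2 were significantly lower, and Has2, Hyal1 and Cemip did not pass the test.

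RNA was sequenced in bulk from notochord-derived cells (NDCs) of Shh-cre;ROSA:YFP mice, from 4 litters of embryos at E12.5 (NDP10.2, NPD3, NPD4 and NPD9.2) and from 4 litters of newborn pups at P0 (NPD26, NPD27, NPD28 and NPD30). In these mice Cre recombinase driven from the Shh locus switches on a yellow fluorescent protein, which then marks any cell that has expressed Shh and all of its progeny. Both stages carry the same alleles, and each sample is the pool of the embryos or pups of 1 litter, so the replicates are litters and not single animals. At E12.5 the intact notochord was freed by dissection and lysed at once without a sort, whereas P0 cells were shaken out of the opened discs, strained and sorted for the fluorescent protein. The notochord was taken whole at E12.5, but only lumbar and thoracic discs were opened at P0. Stage, isolation method and region of the spine therefore cannot be told apart. In bulk samples fewer cells of a type and less RNA per cell cannot be told apart either.

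Hyaluronan is a long, unsulfated glycosaminoglycan that is spun out through the plasma membrane by the Has enzymes rather than assembled on a core protein in the Golgi. Aggrecan and versican bind it and link proteins stabilize that binding, which builds a hydrated gel around the notochord and later within the NP. It is cut at the cell surface and in lysosomes by hyaluronidases and by the Cemip proteins, its fragments are finished by lysosomal exoglycosidases, and Cd44 is the main receptor that holds it at the surface of many cell types, leukocytes included.

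The libraries held 4442775 to 8904050 reads counted on genes. Levels are given as CPM, the count of a gene scaled to the TMM size of its library. The floor used here was 3 counts, worth from 0.353 CPM in NPD28 to 0.738 CPM in NPD9.2. Only counting error is covered by such a floor. The stages were compared by edgeR over 15467 genes, and a gene was called at a Benjamini-Hochberg adjusted p under 0.05. By that rule 16.0% of all tested genes were higher and 12.0% lower at P0. Every P0 litter lay above every E12.5 litter in 15.5% of the tested genes and below in 14.4%.

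The labelled tissue was checked against 10 notochord and NP markers, whose summed level was 2382 to 6367 CPM at E12.5 and 8220 to 31824 CPM at P0. Most of the P0 sum was Car3, with 6250 to 24889 CPM. Of the 9 markers tested 3 were higher at P0 and 2 lower, the latter being Foxa1 (70.0 to 239 against 18.6 to 52.3 CPM) and Shh (420 to 1348 against 0.157 to 11.8 CPM). Brachyury (T), Krt8 and Car3 were present in all 8 libraries, while the early notochord gene Noto was at no more than 0.433 CPM in any. The other markers showed further cells. All 12 leukocyte genes were higher at P0, with sums of 65.8 to 138 CPM at E12.5 against 3492, 4195 and 4635 CPM in NPD26, NPD27 and NPD28 but 429 CPM in NPD30. Of 8 osteoblast genes 6 were tested and 5 were higher at P0 (sums of 54.5 to 333 against 1085 to 1891 CPM). Bglap2 and Dmp1 were at 0 in all E12.5 litters. Of 6 osteoclast genes 3 were tested and all 3 were higher (19.0 to 29.8 against 214 to 1209 CPM, with Dcstamp at 0 at E12.5). All 7 sclerotome genes were lower at P0, at 134 to 205 against 6.24 to 21.5 CPM, as were all 3 primitive erythroid globins (8120 to 32815 against 2.12 to 7.07 CPM) and 1 of 6 endothelial genes (71.6 to 150 against 23.2 to 110 CPM). Of 8 chondrocyte genes 7 were tested, with 2 higher and 1 lower (2191 to 7435 against 1252 to 4758 CPM). Of 6 neural tube genes 3 were tested and none was called. The sum of the 6 was highest in NPD4 at 870 CPM, with other E12.5 litters at 47.2 to 89.0 CPM and P0 litters at 115 to 290 CPM.

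Cd44 and Has1 moved furthest of the 7 genes, in opposite directions, and their upstream sequences are shown for that reason. RefSeq promoter windows on GRCm38.p6 were found for 5 of the 7 genes: Cd44, Has1, Cemip, Hyal1 and Hyal2. The windows run for 250 bases up to the RefSeq start, and 17 bases of the Has1 window that Gencode places inside the gene are left off. Both genes lie on the minus strand, and the sequences read 5′ to 3′ towards the gene, with motif matches in capitals. The first window is chr2:102901666-102901915 and the second chr17:17855206-17855438.
Cd44: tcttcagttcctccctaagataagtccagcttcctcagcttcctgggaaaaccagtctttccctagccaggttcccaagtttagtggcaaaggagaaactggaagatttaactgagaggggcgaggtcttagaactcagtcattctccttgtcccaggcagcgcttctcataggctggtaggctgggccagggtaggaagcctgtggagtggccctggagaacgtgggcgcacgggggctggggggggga
Has1: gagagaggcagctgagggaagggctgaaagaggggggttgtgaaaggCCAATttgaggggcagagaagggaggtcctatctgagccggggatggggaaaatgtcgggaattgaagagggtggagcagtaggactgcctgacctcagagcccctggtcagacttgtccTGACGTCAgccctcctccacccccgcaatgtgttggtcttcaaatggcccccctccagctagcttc
The motifs searched, on both strands, were the TATA box (TATAAA), the CCAAT box (CCAAT), the GC box (GGGCGG), the AP-1 site (TGANTCA) and the cyclic AMP response element (TGACGTCA). None of these stood in the Cd44 window. The Has1 window held a CCAAT box that begins 203 bases before the RefSeq start and a cyclic AMP response element that begins 83 bases before it, with no overlap between them. Of the 32851 promoter windows of the same length, 33.8% held a CCAAT box, 1.55% the cyclic AMP response element, 12.4% a TATA box, 32.7% a GC box and 6.75% an AP-1 site. A match of letters is a description of the window and was not tied to the expression values.

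**Figure D1:**
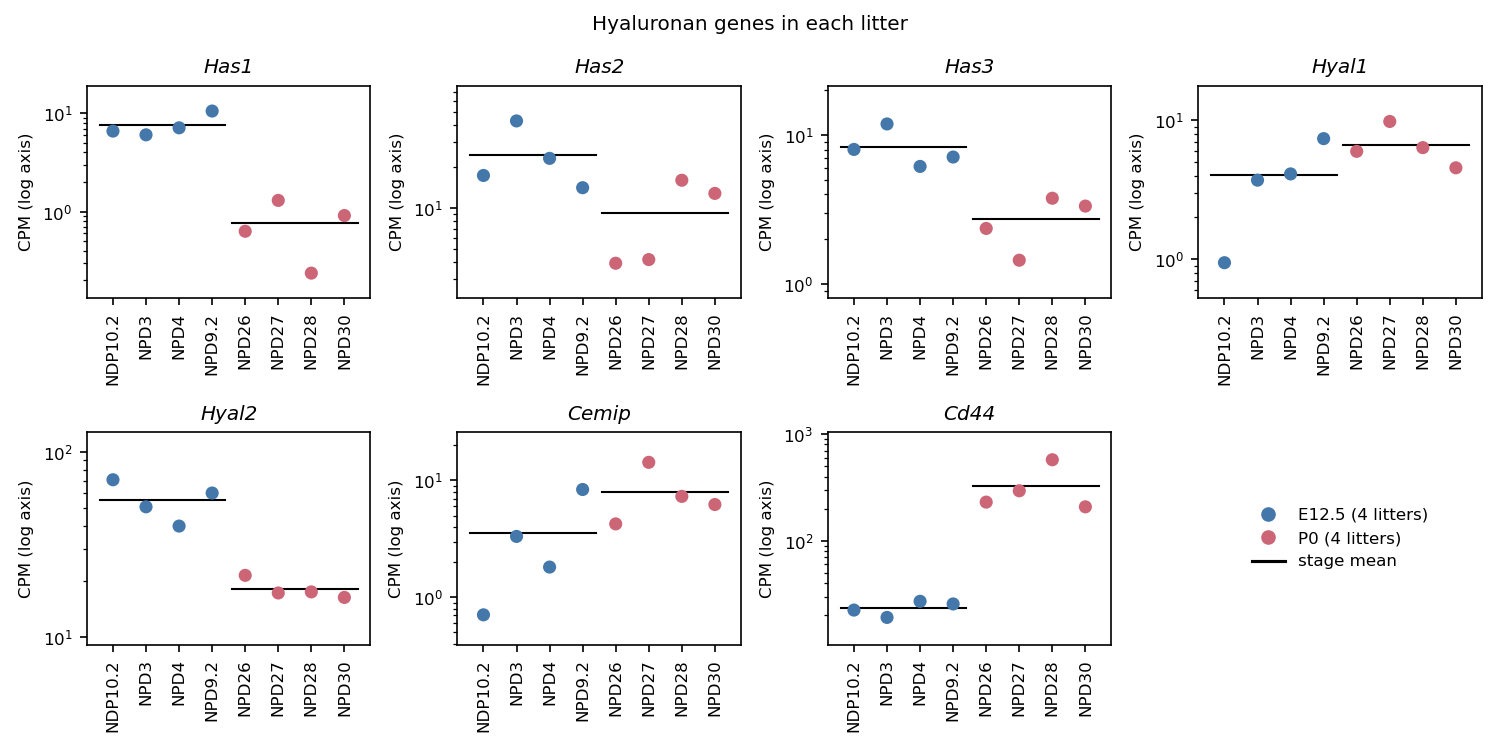
CPM on a log axis for each of the 7 genes in each litter, with 4 E12.5 litters in blue, 4 P0 litters in red and the mean of each stage as a black line. Cd44 lies higher in every P0 litter, Has1, Has3 and Hyal2 lie lower in every P0 litter, and the litters of the stages overlap for Has2, Hyal1 and Cemip.

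Has1, Has2 and Has3 each make hyaluronan from the same pair of UDP-sugars and differ in rate and in the length of the chain. All of their fitted fold changes were below 0, and Has1 and Has3 passed the test. Has1 (ENSMUSG00000003665.6; GRCm38 chromosome 17, 17843323 to 17855205, minus strand) showed the largest loss. It stood at 6.61, 6.05, 7.13 and 10.6 CPM in the E12.5 litters NDP10.2, NPD3, NPD4 and NPD9.2, and at 0.629 (NPD26), 1.30 (NPD27), 0.235 (NPD28) and 0.910 CPM (NPD30) at P0. No P0 litter came near the lowest E12.5 litter. The mean fell from 7.59 ± 2.04 CPM to 0.768 ± 0.449 CPM (SD, n = 4 litters each), a 9.88-fold lower mean. The log2 fold change, P0 over E12.5, was -3.29 with a standard error (SE) of 0.55 (95% confidence interval -4.51 to -2.07; edgeR adjusted p = 0.00182). The P0 values rest on few reads, 21 counts in all against 161 at E12.5, and the 2 counts in NPD28 are under the floor of 3.

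Has3 (ENSMUSG00000031910.10; chromosome 8, 106870242 to 106884566, plus strand) was measured at 8.02, 11.9, 6.17 and 7.13 CPM in the E12.5 litters and at 2.36, 1.44, 3.77 and 3.34 CPM in the P0 litters, in the same order. Again the stages did not overlap, with NPD4 the lowest at E12.5 and NPD28 the highest at P0. Its mean fell from 8.31 ± 2.52 to 2.73 ± 1.04 CPM, with a log2 fold change of -1.59 (SE 0.44, 95% confidence interval -2.56 to -0.63, edgeR adjusted p = 0.0197). The call was lost without 1 of 3 litters: the edgeR adjusted p was 0.0619 without NPD3, 0.0550 without NPD26 and 0.0537 without NPD27, with log2 fold changes of -1.41, -1.52 and -1.37. Has3 shares 352 of its 6380 exon bases with Chtf8, a gene on the opposite strand, which had 194 to 702 counts per library against 10 to 61 for Has3. Whether the counting used strand is not given in the sources used here.

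Has2 (ENSMUSG00000022367.7; chromosome 15, 56665627 to 56694539, minus strand), the synthase that the embryonic heart needs, varied most of the 3 synthases relative to its mean, at both stages. Its E12.5 litters stood at 17.2, 43.1, 23.0 and 14.0 CPM and its P0 litters at 3.93, 4.18, 15.9 and 12.7 CPM. NPD26 and NPD27 were low, while NPD28 lay above the lowest E12.5 litter, NPD9.2. The means of 24.3 ± 13.1 and 9.19 ± 6.06 CPM gave a log2 fold change of -1.40 (SE 0.52, 95% confidence interval -2.56 to -0.24), and the edgeR adjusted p of 0.0698 missed the threshold. Without NPD28 the log2 fold change was -1.80 with an adjusted p of 0.0386, and over the alternatives the adjusted p ran from 0.0286 to 0.508. Has2 shares 182 exon bases with its antisense transcript Has2os, which had 0 to 12 counts per library against 25 to 221 for Has2.

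Levels of different genes are compared per kilobase of exon. On that scale Has2 was the leading synthase in all 8 litters. It made up 63.2% ± 11.6 of the summed synthase level at E12.5 and 74.1% ± 10.5 at P0 (SD, n = 4 litters), and the litters of the stages overlapped, at 48.9% to 76.1% and 64.6% to 85.4%. Has1 held 21.5% ± 10.1 at E12.5 and 8.86% ± 7.69 at P0, and Has3 15.3% ± 2.82 and 17.1% ± 5.82. The sum of the 3 synthases was 6.78, 13.4, 7.97 and 6.77 CPM per kb in the E12.5 litters and 1.44, 1.50, 4.39 and 3.73 CPM per kb in the P0 litters. Every P0 litter thus carried less synthase mRNA per length than every E12.5 litter.

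**Figure D2:**
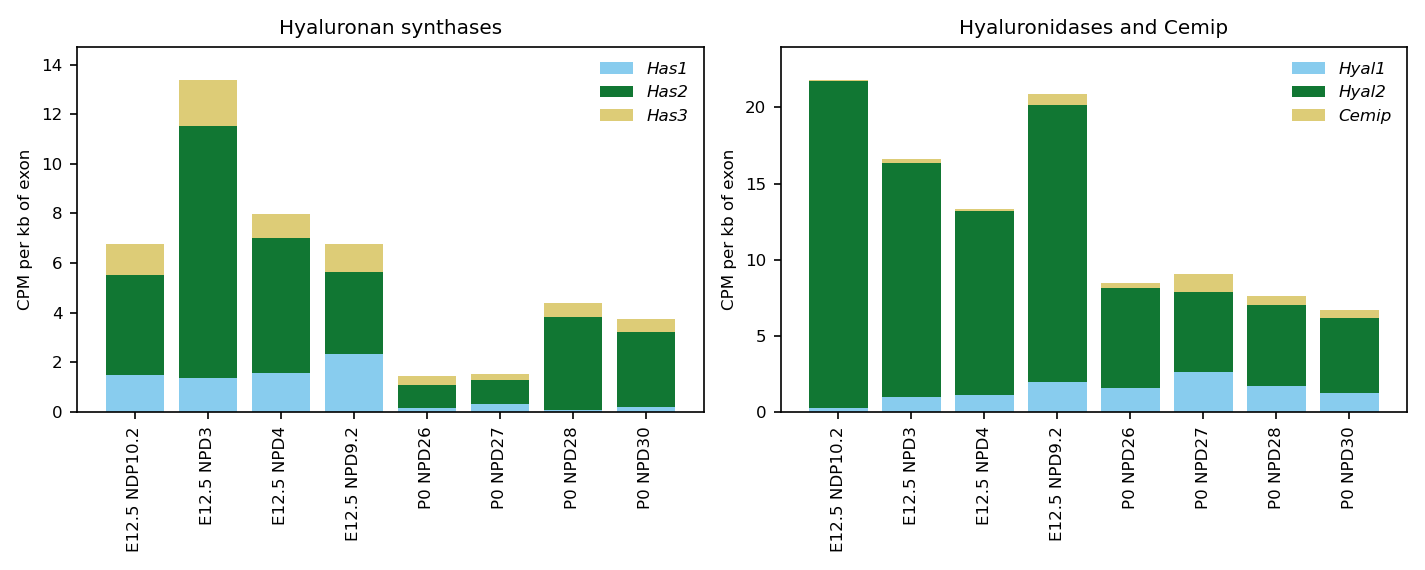
Stacked bars of CPM per kilobase of exon in each litter, for the 3 synthases on the left and for Hyal1, Hyal2 and Cemip on the right, both from 0. The summed synthase level of the E12.5 litters spans 6.77 to 13.4 and that of the P0 litters 1.44 to 4.39, with Has2 the largest part in each litter, and Hyal2 is the largest part of every bar on the right, where Hyal1 is divided by its full exon length.

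Hyal2, the hyaluronidase anchored at the cell surface, was lower at P0. The gene (ENSMUSG00000010047.8; chromosome 9, 107567945 to 107572779, plus strand) had 70.8, 50.5, 39.8 and 60.0 CPM in the E12.5 litters against 21.5, 17.3, 17.5 and 16.4 CPM in the P0 litters. The P0 litters were tightly grouped and all below NPD4, the lowest at E12.5. Its mean fell from 55.3 ± 13.2 to 18.2 ± 2.29 CPM, with a log2 fold change of -1.60 (SE 0.24, 95% confidence interval -2.13 to -1.07, edgeR adjusted p = 0.00104). It shares no exon base with another counted gene.

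Hyal1, the lysosomal hyaluronidase, is its neighbor on chromosome 9 (ENSMUSG00000010051.11; 107576927 to 107581710, plus strand). It was measured at 0.944, 3.71, 4.11 and 7.38 CPM at E12.5 and at 5.98, 9.81, 6.36 and 4.55 CPM at P0. The low value was that of NDP10.2, with 4 counts, and the stages overlapped through NPD9.2. Its means were 4.03 ± 2.64 and 6.67 ± 2.23 CPM, and the log2 fold change was 0.73 (SE 0.54, 95% confidence interval -0.47 to 1.92, edgeR adjusted p = 0.356). Naa80 and Hyal3 on the same strand cover 51.9% of its exon bases, and reads that fall on 2 genes are set aside by the counter, so its level is uncertain. Reads set aside in that way made up 16.3% and 17.5% of all reads in NDP10.2 and NPD9.2 and 7.07% to 11.6% in the other 6 libraries; their part in the Hyal1 values was not tested.

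Cemip, a secreted protein that depolymerizes hyaluronan outside the cell (ENSMUSG00000052353.9; chromosome 7, 83932857 to 84086502, minus strand), stood at 0.708, 3.32, 1.81 and 8.36 CPM in the E12.5 litters and at 4.25, 14.3, 7.30 and 6.22 CPM in the P0 litters. NPD9.2 at E12.5 was above 3 of the P0 litters, and NDP10.2 had 3 counts. With means of 3.55 ± 3.38 and 8.01 ± 4.36 CPM, the log2 fold change was 1.19 (SE 0.67, 95% confidence interval -0.27 to 2.66, edgeR adjusted p = 0.210). It was 1.98 without NPD9.2, with an adjusted p of 0.0515, and 0.77 without NPD27, with an adjusted p of 0.479.

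Per kilobase, Hyal2 made up 92.3% ± 4.71 of the summed level of Hyal1, Hyal2 and Cemip at E12.5 and 70.0% ± 8.35 at P0. The share was 87.4% to 98.6% in the E12.5 litters and 58.3% to 77.2% in the P0 litters, which did not overlap. For Hyal1 the share was 1.15% to 9.36% in the E12.5 litters and 18.0% to 28.8% in the P0 litters, and for Cemip it was 0.265% to 3.28% and 4.10% to 12.9%. The summed level was 13.3 to 21.8 CPM per kb at E12.5 and 6.68 to 9.02 CPM per kb at P0. As Hyal2 is the largest term, a lower Hyal2 alone raises the shares of the other two. These shares divide Hyal1 by its full exon length, although reads on the bases it shares were set aside. On the 1816 exon bases that no other counted gene shares, a choice added later, the Hyal1 share was 2.35% to 17.7% at E12.5 against 31.4% to 45.7% at P0, and Hyal2 held 79.3% to 97.4% against 44.5% to 64.3%, with Hyal1 above Hyal2 in NPD27.

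Cd44, the receptor (ENSMUSG00000005087.13; chromosome 2, 102811141 to 102901665, minus strand), showed the largest change of the 7 genes. Its E12.5 litters lay close together at 22.4, 19.1, 27.1 and 25.6 CPM, and its P0 litters spread over 230, 294, 574 and 208 CPM. The lowest P0 litter, NPD30, was far above the highest E12.5 litter, NPD4. Its mean rose from 23.5 ± 3.53 to 327 ± 169 CPM, 13.9-fold, with a log2 fold change of 3.79 (SE 0.37, 95% confidence interval 2.99 to 4.60, edgeR adjusted p = 0.000123). The counts are per gene, so the splice forms of Cd44 were not analysed here.

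Leukocytes, osteoclasts and osteoblasts all express Cd44, and their marker sums were higher at P0 too. NPD30 differed from the other P0 litters in its leukocyte sum. In NPD26, NPD27 and NPD28 the leukocyte sum was 38.2, 45.9 and 50.7 times its E12.5 mean, and Cd44 was 9.78, 12.5 and 24.4 times its own. For NPD30 the leukocyte sum was 4.70 times and Cd44 8.83 times the E12.5 mean. The leukocyte sum of the other 3 P0 litters was 8.14 to 10.8 times that of NPD30, and their Cd44 level was 1.11 to 2.76 times that of NPD30. The notochord and NP marker sum was 12574, 8220, 12595 and 31824 CPM in NPD26, NPD27, NPD28 and NPD30, highest where Cd44 was lowest. The osteoclast sum was 19.2, 17.6, 48.2 and 8.52 times its E12.5 mean in NPD26, NPD27, NPD28 and NPD30. Its peak in NPD28 came from Mmp9, at 111, 150, 1059 and 90.5 CPM in that order. Acp5 was at 169, 159, 68.7 and 19.6 CPM and Ctsk at 196, 120, 76.3 and 103 CPM, both highest in NPD26. The osteoblast sum was 5.62, 6.27, 5.77 and 9.80 times its E12.5 mean in the same litters, highest in NPD30. Most of its E12.5 level was Spp1 and Runx2, so single genes differed from the sum. From E12.5 to P0 the mean went from 134 to 850 CPM for Spp1 and from 52.2 to 39.4 CPM for Runx2. It went from 0.158 to 356 CPM for Ibsp and from 1.81 to 36.5 CPM for Sp7. The part of any of these cell types in the Cd44 level was not tested.

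**Figure D3:**
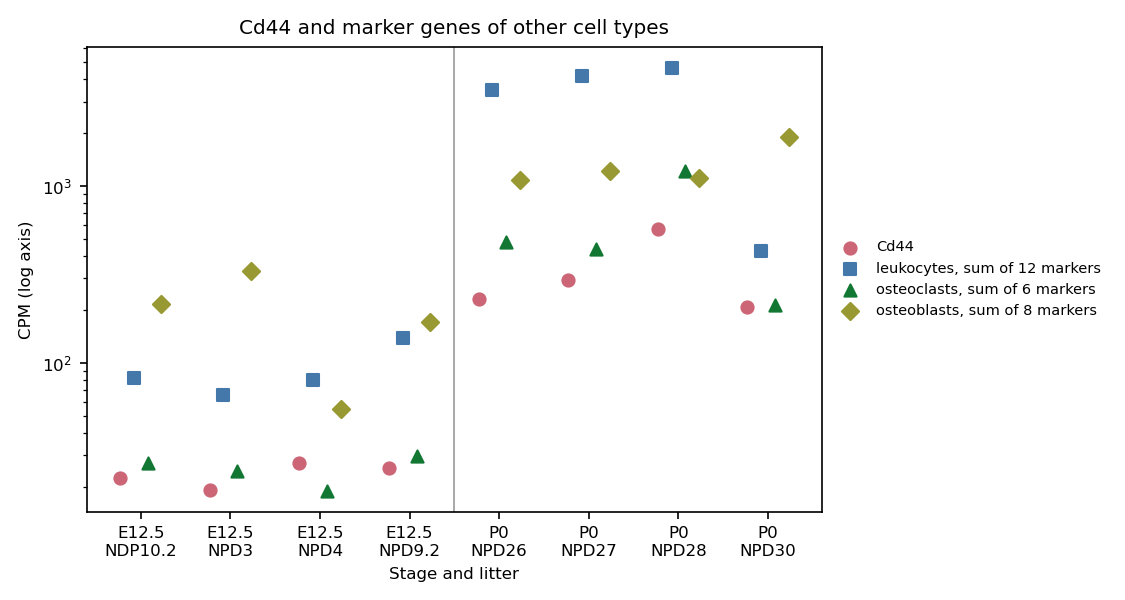
Cd44 in CPM and the summed CPM of leukocyte, osteoclast and osteoblast markers in each litter, on a log axis, with the stages parted by a vertical line. In NPD30 the leukocyte sum is 429 CPM against 3492 to 4635 CPM in the other P0 litters, and Cd44 is 208 CPM against 230 to 574 CPM.

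Set beside each other per kilobase, Hyal2 led the 7 genes at E12.5 with 16.8 ± 4.02 CPM per kb, above Has2 at 5.74 ± 3.08 in all 4 litters. Cd44 followed at 3.48 ± 0.52, and its litters overlapped those of Has2. Has1 at 1.68 ± 0.45, Has3 at 1.30 ± 0.39, Hyal1 at 1.07 ± 0.70 and Cemip at 0.290 ± 0.276 each overlapped with the next gene in the order. At P0 the order began with Cd44 at 48.2 ± 25.0 CPM per kb, followed without overlap by Hyal2 at 5.52 ± 0.696. Next came Has2 at 2.17 ± 1.43 and Hyal1 at 1.77 ± 0.59, which overlapped. On its unshared bases Hyal1 would stand at 2.22 ± 1.45 at E12.5 and 3.67 ± 1.23 at P0, which puts its mean above those of Has1 and Has3 at E12.5 and above that of Has2 at P0. Cemip at 0.655 ± 0.357, Has3 at 0.427 ± 0.163 and Has1 at 0.170 ± 0.0993 closed the order, each overlapping with its neighbor.

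**Figure D4:**
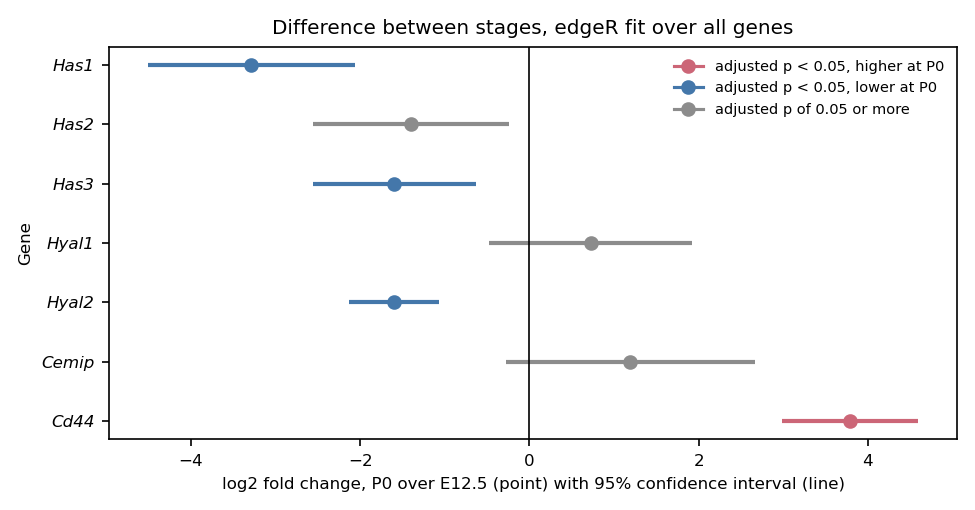
Log2 fold change of P0 over E12.5 for the 7 genes as points, with 95% confidence intervals as lines, from the edgeR fit over all tested genes. The intervals of Has1, Has2, Has3 and Hyal2 lie below 0 and that of Cd44 above, but the adjusted p of Has2 is 0.0698, and the intervals of Hyal1 and Cemip include 0.

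In all, 1 of the 7 genes was called higher at P0 and 3 were called lower, beside 16.0% and 12.0% of all tested genes, and their median log2 fold change was -1.40 against 0.04 over all tested genes. In a fit added once the values were known, with NPD30 as the only P0 litter and assumed to vary like the others, 3.69% of all tested genes were called higher and 2.46% lower. There Cd44 was called higher (log2 fold change 3.18, edgeR adjusted p = 0.000478) and 0 of the 7 were called lower, with edgeR adjusted p values of 0.0748 for Has1, 0.383 for Has3 and 0.0506 for Hyal2, and 2 lower at an unadjusted p under 0.05. The wider pathway was counted over 46 further genes, of which 34 passed the filter. Among these, 9 were higher and 7 lower at P0, and the median log2 fold change was 0.10.

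The sugar precursors come first. Of 7 genes that make UDP-glucuronic acid and UDP-N-acetylglucosamine, all tested, 1 was higher and the median log2 fold change was 0.14. That gene was Ugp2, which makes UDP-glucose, at 47.7 to 91.5 CPM in the E12.5 litters and 99.8 to 147 CPM in the P0 litters (log2 fold change 0.95, SE 0.25, edgeR adjusted p = 0.0156). Ugdh, which oxidizes UDP-glucose to the glucuronic acid form, had means of 147 ± 49.0 and 138 ± 57.2 CPM and an adjusted p of 0.878.

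Among the breakdown genes, the surface genes Hyal2 and Cemip2 were called lower. Cemip2, the transmembrane relative of Cemip, fell from 109 to 259 CPM in the E12.5 litters to 23.7 to 48.7 CPM in the P0 litters, with a log2 fold change of -2.06 (SE 0.36, edgeR adjusted p = 0.00210). Among the 9 hyaluronidase and depolymerase genes 4 were tested, 2 were lower and none higher, and the median log2 fold change of the tested ones was -0.44. Hyal3, Hyal4, Hyal5, Hyal6 and Spam1 did not pass the filter, and the last 4 had no count in any E12.5 litter and means of at most 0.603 CPM at P0. Gusb (beta-glucuronidase) and Hexa, exoglycosidases of the lysosome named here after their values were seen, were higher at P0 with log2 fold changes of 1.44 and 2.34 (edgeR adjusted p = 0.0355 and 0.00807), and their litters overlapped: NPD30 stood at 40.8 CPM for Gusb and 57.3 CPM for Hexa, within their E12.5 ranges of 36.5 to 60.6 and 31.2 to 67.2 CPM. NPD30 is also the P0 litter with the lowest leukocyte sum, and the part of leukocytes in these values was not tested.

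Of 6 hyaluronan receptors, all tested, 3 were higher and none lower, and the median log2 fold change was 3.14. Cd44 was the only one of them whose litters did not overlap between the stages. Stab1 and Stab2, scavenger receptors of sinusoidal endothelium and macrophages and named after their values were seen, passed at log2 fold changes of 3.64 and 3.71 (edgeR adjusted p = 0.0262 and 0.0131). Stab1 had 391, 580 and 296 CPM in NPD26, NPD27 and NPD28 but 3.03 CPM in NPD30, under its E12.5 range of 16.6 to 41.8 CPM. Stab2 had 49.2, 74.8, 26.4 and 3.18 CPM in the same litters. In that order the endothelial marker sum was 44.2, 110, 38.4 and 23.2 CPM and the leukocyte sum 3492, 4195, 4635 and 429 CPM. Single leukocyte genes differed in their order. Laptm5, Tyrobp, Fcer1g and Cybb were highest in NPD27, as were Stab1 and Stab2, Cd53 was highest in NPD26 and the rest in NPD28. Fcer1g stood at 412, 462, 168 and 12.1 CPM and Itgb2 at 61.8, 89.4, 327 and 26.8 CPM. The part of either cell type in the Stab1 and Stab2 levels was not tested. Hmmr, a receptor that also binds the mitotic spindle, had means of 43.2 ± 15.9 and 59.5 ± 20.4 CPM and an adjusted p of 0.320.

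Proteoglycans that sit on hyaluronan moved in both directions. Vcan (versican), the large proteoglycan of embryonic matrix, fell from 440 to 949 CPM in the E12.5 litters to 14.3 to 45.3 CPM in the P0 litters (log2 fold change -4.39, SE 0.41, edgeR adjusted p = 0.000112). Of the 8 proteoglycan and link protein genes 4 were tested, with 1 higher and 2 lower and a median log2 fold change of -1.08. Acan (aggrecan) and Ncan (neurocan), named after their values were seen, were the others called, with overlapping litters: Acan rose by 1.99 on the log2 scale (edgeR adjusted p = 0.0422), and the log2 fold change of Ncan was -1.40 (edgeR adjusted p = 0.0319). The link protein Hapln1, which locks aggrecan and versican onto hyaluronan, had means of 947 ± 531 and 561 ± 360 CPM and an adjusted p of 0.318. Bcan (brevican) did not pass the filter, with 0 to 1.23 CPM at E12.5 and 1.53 to 7.08 CPM at P0.

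Transfer of heavy chains onto hyaluronan needs Tnfaip6 (TSG-6) and the inter-alpha-inhibitor genes. Of 8 genes 5 were tested, 1 was lower and none higher, and the median log2 fold change was -0.89, also with Ambp at its bound. Ambp, which encodes the bikunin light chain, had 11.1, 2.54, 1.81 and 22.9 CPM in the E12.5 litters and no count in any P0 litter, and was at least 20.3-fold lower at P0 against 3 counts in the shallowest P0 library (edgeR adjusted p = 0.00507), or at least 10.9-fold without NPD9.2. The E12.5 notochords were not sorted, and the part of other tissue in the Ambp level was not tested. Tnfaip6 had means of 5.57 ± 1.41 and 9.75 ± 2.74 CPM and an adjusted p of 0.129.

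Genes that act on the Cd44 protein or its transcript were counted last. Of 9, all tested, 2 were higher and 3 lower, with a median log2 fold change of -0.19. Msn (moesin), which ties the tail of Cd44 to actin, rose from 145 to 182 CPM in the E12.5 litters to 420, 525, 737 and 352 CPM in the P0 litters (log2 fold change 1.59, SE 0.28, edgeR adjusted p = 0.00206). Its order over the P0 litters was that of Cd44 and also that of the leukocyte sum. The part of leukocytes in the Msn level was not tested. Ezr and Rdx, the other members of the same linker family, had adjusted p values of 0.899 and 0.847. Adam17, a protease that sheds surface proteins, rose from 35.8 to 53.1 CPM to 56.2 to 154 CPM (log2 fold change 1.37, SE 0.31, edgeR adjusted p = 0.00728), with NPD30 the lowest P0 litter. Esrp1 and Esrp2, epithelial splicing factors that favor the inclusion of variable exons in Cd44, both fell. Esrp1 had 12.5 to 16.7 CPM at E12.5 and 0.118 to 1.73 CPM at P0 (log2 fold change -3.99, SE 0.58, edgeR adjusted p = 0.000828). Esrp2 had 5.07 to 17.5 and 0.315 to 1.73 CPM (log2 fold change -3.34, SE 0.62, edgeR adjusted p = 0.00302). Few reads stand behind these P0 values, 25 counts for Esrp1 and 27 for Esrp2. The 1 Esrp1 count in NPD28 and the 2 Esrp2 counts in NPD26 are under the floor of 3. The third gene that was lower, the protease Mmp14, had overlapping litters and was lower by a log2 fold change of -0.79 (edgeR adjusted p = 0.0337); it was named after its values were seen.

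**Figure D5:**
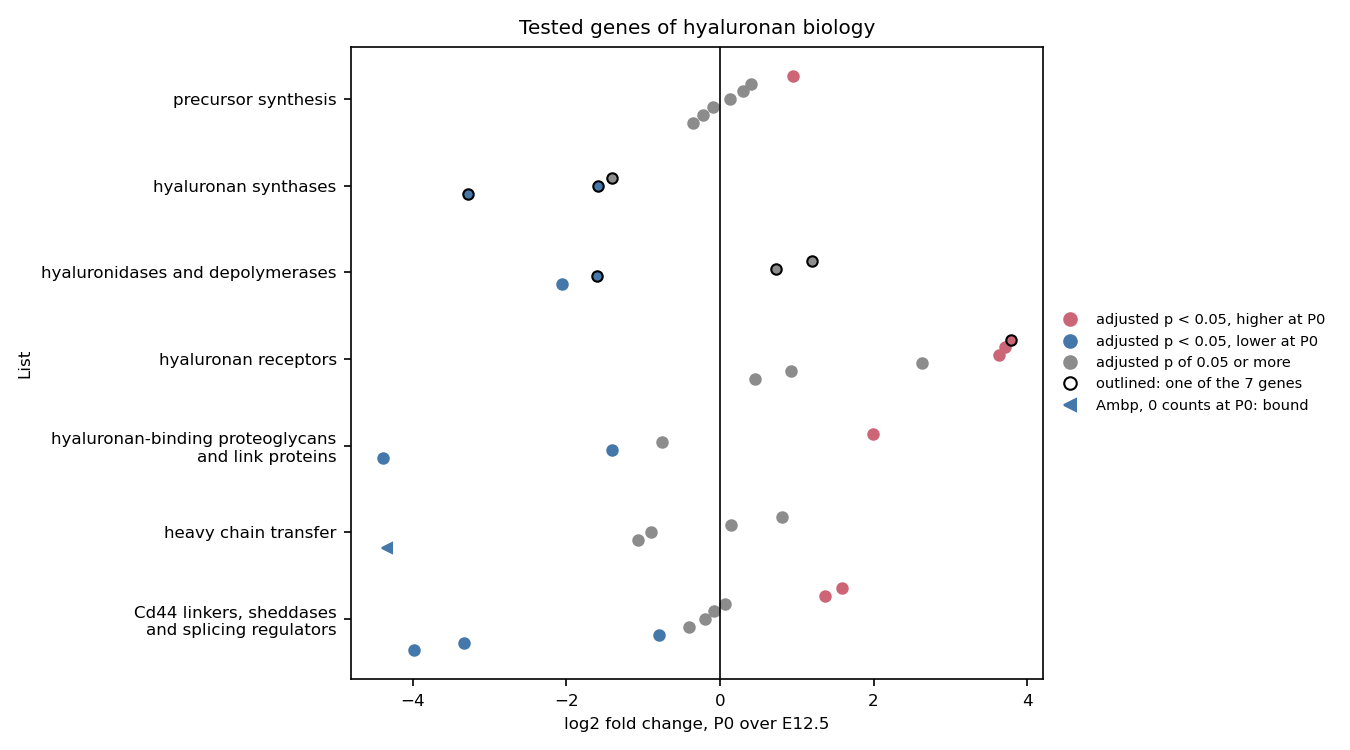
Log2 fold change of P0 over E12.5 for every tested gene of 7 hyaluronan lists, with red for genes called higher, blue for genes called lower and gray for the rest. The 7 genes are outlined, all 3 synthases lie below 0, and Ambp, with no count at P0, is drawn at its bound of -4.34.

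Has1 and Hyal2 were high in the stage at which sclerotome markers were high, and these markers stood at 134 to 205 CPM in the E12.5 litters and at no more than 21.5 CPM at P0. The E12.5 notochords were not sorted, and the part of adjoining sclerotome in the Has1 and Hyal2 levels was not tested.

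The genes whose pattern over the 8 litters was most like that of each of the 7 were found from the root mean square difference of log2 CPM, each gene centered on its own mean. For Has1 these were Lamb1, a laminin chain, at 0.20, Sema3a, a guidance cue, at 0.25, and Vash2 at 0.26, where the median gene lay at 1.63. Has2 was closest to Prkg1 at 0.28, 1700034J05Rik at 0.33 and Slc16a4 at 0.34, and Has3 to Pcdhgb4 at 0.22, ENSMUSG00000096952.1 at 0.22 and Prr16 at 0.22. Hyal2 had the nearest neighbors of all, with Snrpg at 0.14, Gcat at 0.15 and Mcam, a cell adhesion molecule, at 0.18 against a median gene at 0.98. Pde8b at 0.22, Sag at 0.28 and Slc35g1 at 0.31 were nearest to Hyal1. Cemip was followed by Egr3, an early response transcription factor, at 0.28, and by Exoc3l4 at 0.42. Nearest to Cd44 were Pik3cd, a phosphoinositide kinase of leukocytes, at 0.27, Abcb4 at 0.30 and C1ra, a complement protease, at 0.32, with the median gene at 1.91.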

How the data were processed

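Reads of the 8 libraries were, per the labels and the methods of the study, aligned to GRCm38 with STAR 2.4.0j and tallied on Gencode M4 genes with htseq-count. The deposited values are raw counts, 1 per gene and litter, without normalization. Whether strand was used is not given in the sources used here.

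Stages were compared in R 4.3.3 with edgeR 4.0.16 (TMM, filterByExpr with a minimum count of 10 and a minimum total of 15, robust quasi-likelihood F-test, Benjamini-Hochberg adjustment over 15467 genes, call at 0.05), on 4 litters a stage. The SE is the size of the log2 fold change over the square root of F. Log2 CPM used a prior count of 2. Exon lengths and positions were read from the later Gencode M21 annotation of that build. DESeq2 1.42.0 and limma 3.58.1 gave alternatives. Replicate libraries differed beyond sampling noise and none was a duplicate.

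The 7 genes and all lists were chosen with earlier results of these data known. Named were the 7 genes, listed genes called with litters that did not overlap, listed genes that did not pass with values only, the 3 most similar genes of each, and overlapping genes. Some genes that these rules select are not reported here.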

Additional observations from a re-analysis of the deposited data

Results flagged for a closer look

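No litter stood apart for any of the 7 genes. Over the tested pathway genes and the marker sums, 99 groups of 4 litters were checked on the log2 scale by the gap of the extreme litter to its nearest neighbor over the whole range, against Dixon's critical value, which chance passes in about 1 in 20 groups. NPD30 was the lowest P0 litter in all 3 that passed. The leukocyte marker sum gave 0.881, with 429 CPM in NPD30 against 3492 to 4635 CPM. Stab1 gave 0.87, with 3.03 against 296 to 580 CPM. Nf2, the merlin gene that opposes the linkers of Cd44, gave 0.977, with 32.6 against 40.5 to 40.7 CPM.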

How the results depend on the processing

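All 7 genes kept the direction of their difference in every alternative that gave a value: other tests (DESeq2, limma-voom), scalings, filters, downsampling, removal of mitochondrial and hemoglobin genes, non-robust dispersion estimates, and litters left out. Cd44, Has1 and Hyal2 were called in all of these that kept more than 1 P0 litter. Upper quartile normalization shifted the median of all log2 fold changes by -0.14 and moved no direction of the 7. Has2 passed the threshold under DESeq2 (-1.43), upper quartile normalization (-1.58), no filter (-1.38) and without NPD30 and NPD9.2 (-1.83), and ranged from -1.80 to -1.01 with each litter left out in turn. Has3 ranged from -1.79 to -1.37 with each litter left out and did not pass without NDP10.2 and NPD9.2 (-1.75). That pair left out also reduced the genes called from 4321 to 2581. With NPD30 as the only P0 litter, added after seeing the data, 1054 genes were called, and of the 7 genes 0 were called lower by edgeR (Has1 -2.98, Has3 -1.27, Hyal2 -1.70), while 2 had an unadjusted p under 0.05. That fit holds 5 libraries. Hyal1 set on its unshared exon bases, also added later, moved from 1.07 to 2.22 CPM per kb at E12.5 and from 1.77 to 3.67 at P0, its mean share of the 3 breakdown genes from 6.15% to 11.8% and from 21.9% to 36.6%, and that of Hyal2 from 92.3% to 86.7% and from 70.0% to 56.9%. Has1, Hyal1 and Cemip have no value under a minimum of 10 counts in every sample, which they do not reach. Among the 7 genes, depth limits Has1 at P0 and Hyal1 and Cemip in NDP10.2, where 9 counts or fewer stand behind a value. No paired analysis was possible because the litters of the stages share no number.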
